A study of Mus musculus with 18 samples.

Results

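The genes described here are 10 target genes of the liver X receptors (LXR) and genes of cholesterol efflux: Abca1, Abcg1, Apoe, Pltp, Mylip, Lpcat3, Srebf1, Arl4c and the receptors Nr1h3 and Nr1h2. They were found by the gene symbol of the platform annotation, and 8 of the 10 had a row, 1 row each, among 24705 rows with a symbol. No row carries the symbol Nr1h2 or Arl4c in that annotation, which leaves 723 rows of the values without a name. The expression of Nr1h2 and Arl4c was not analysed here. Expression was measured on 18 Affymetrix arrays of mouse bone marrow-derived macrophages, grown in culture from femoral marrow with M-CSF at 30 ng/ml. On day 4 the cells received medium with 10% plasma of mice that had eaten a Western diet, rich in fat and cholesterol, for 8 weeks. RNA was taken 48 h later, on day 6. All plasma donors were C57BL/6J mice. They were wild type (WT, 4 arrays), ApoE-KO (ApoE, 5 arrays), ApoE-Stab1-KO (AS1, 3 arrays) or ApoE-Stab2-KO (AS2, 6 arrays), so AS1 and AS2 donors lacked apolipoprotein E as the ApoE donors did, and in addition stabilin-1 or stabilin-2, scavenger receptors that clear ligands from blood. The knockouts are those of the plasma donors. Apoe read in the macrophages therefore does not check the labels. The labels do not say whether arrays of a group came from separate cultures or plasma donors, so the p-values reflect how far arrays of a group lay apart, and that spread may be technical.

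LXRs are nuclear receptors that bind oxidised cholesterol derivatives and act on DNA together with retinoid X receptors. In macrophages loaded with cholesterol their target genes move the sterol out of the cell: ABCA1 passes lipid to lipid-poor apolipoprotein A-I, ABCG1 passes cholesterol to HDL particles, and secreted apolipoprotein E accepts lipid. Other targets limit further uptake, remodel membrane phospholipids or raise fatty acid synthesis.

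Within groups, the mean r of an array with its fellows across rows was 0.9912 to 0.9971, with ApoE replicate 2 lowest. The nearest array outside its own group was AS1 replicate 3 for ApoE replicate 5 (r = 0.9935). The mean level of 8 macrophage marker genes was 11.0 to 11.04 on WT arrays, 10.49 to 10.76 on ApoE arrays, 10.98 to 11.09 on AS1 arrays and 10.53 to 10.61 on AS2 arrays, against a median row of 4.37. Of the defining markers, 4 of 5 T and NK cell genes (Cd3e, Cd3d, Cd8a, Ncr1), 3 of 5 B cell genes (Ms4a1, Pax5, Ebf1) and 3 of 3 adipocyte genes (Adipoq, Plin1, Cidec) lay below the median row on every array. The exceptions were higher with AS1 than with ApoE plasma: Cd79b, part of the B cell receptor, at a mean of 7.16 against 5.94 (adjusted p = 0.00012), Cd79a at 4.18 against 3.86 (adjusted p = 0.0229) and the granule gene Nkg7 at 5.37 against 4.82 (adjusted p = 0.00238). In the following lists a smaller share of genes lay this low. Below the median row on every array were 0 of 13 neutrophil, 0 of 6 megakaryocyte and platelet, 1 of 5 endothelial and 3 of 8 mast cell, basophil and eosinophil genes. The mean of the last list was 4.21 to 4.41 on WT, 4.23 to 4.49 on ApoE, 4.88 to 5.27 on AS1 and 4.11 to 4.26 on AS2 arrays. The neutrophil mean was 7.67 to 8.06 on WT, 7.54 to 8.86 on ApoE, 9.64 to 10.01 on AS1 and 7.0 to 7.79 on AS2 arrays. Markers of other cell types were thus read beside those of macrophages. In such bulk samples, fewer cells of a type and less RNA per cell cannot be told apart.

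A promoter window, 250 bases before to 50 bases after the annotated start, was given by RefSeq (GRCm38.p6) for 9 of the 10 genes, in 14 windows, and for Abcg1 none was used here. LXR and its partner are known to bind a DR4 element, a direct repeat of AGGTCA with 4 bases between the copies. With up to 2 mismatches in the 12 fixed bases on either strand, 0 of the 14 windows held it, against 3.02% of 32851 windows. The tolerance was then widened to 3 mismatches, a choice made after the letters were seen, and 21.9% of all windows matched. Among them were windows of Abca1, Srebf1 and Arl4c, which are 3 of the 9 genes with a window. Nothing is read from this count. The Abca1 and Srebf1 matches are shown because their letters are nearly alike. Capitals mark the match, which reads as a repeat on the opposite strand, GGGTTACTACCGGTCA for Abca1 and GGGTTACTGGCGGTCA for Srebf1.
Abca1, chr4:53159905-53160004, minus strand: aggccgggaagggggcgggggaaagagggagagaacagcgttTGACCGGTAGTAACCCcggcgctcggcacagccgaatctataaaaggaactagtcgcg
Srebf1, chr11:60210596-60210695, minus strand: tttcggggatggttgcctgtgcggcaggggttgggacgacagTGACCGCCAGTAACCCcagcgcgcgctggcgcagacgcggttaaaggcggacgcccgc
The matches share 14 of 16 bases. They lie 67 to 52 bases before the start of Abca1, and 182 to 167 bases before the start of the Srebf1 window, 1 of 3 windows of that gene. A match is a description of letters and says nothing of binding in these cells.

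Cholesterol exporters rose with every plasma that lacked apolipoprotein E. Abca1 read 10.89, 10.93, 10.77 and 10.91 on the WT arrays, as log2 values of the RMA method, and 11.86, 11.93, 11.68, 11.75 and 11.78 on the ApoE arrays. On AS1 arrays it read 11.74, 11.80 and 11.71, and the AS2 arrays ran from 11.42 over a median of 11.48 to 11.70. The 4 WT arrays lay below all 14 others. With ApoE plasma Abca1 was 0.93 log2 units higher than with WT plasma (SE 0.06, 95% confidence interval 0.80 to 1.05), a 1.90-fold difference (limma adjusted p = 8.59e-09). With AS2 plasma it was 0.29 log2 units below ApoE (SE 0.054, 1.22-fold lower, adjusted p = 0.000728), although the groups overlapped through the highest AS2 and the lowest ApoE array. The AS2 level stayed 1.55-fold above WT (adjusted p = 2.42e-07). AS1 and ApoE plasma differed by -0.05 with an interval of -0.19 to 0.09, which did not pass the test (adjusted p = 0.732).

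Abcg1 also rose, and it rose further with AS2 plasma. Its values were 9.72, 9.75, 9.68 and 9.74 with WT plasma, 10.74, 10.65, 10.82, 10.85 and 10.87 with ApoE plasma, and 10.78, 10.78 and 10.71 with AS1 plasma. The 6 AS2 arrays read 11.35 to 11.54 with a median of 11.38. The WT arrays lay below every other array and the AS2 arrays above every other array. ApoE exceeded WT by 1.06 log2 units (SE 0.049, 2.09-fold, adjusted p = 2.17e-10), and AS2 exceeded ApoE by a further 0.62 (SE 0.044, 1.54-fold, adjusted p = 2.14e-08). From WT to AS2 this came to 3.22-fold (adjusted p = 1.18e-13). AS1 and ApoE differed by -0.03 (interval -0.14 to 0.08, adjusted p = 0.82). Abca1 and Abcg1 thus changed in opposite directions between ApoE and AS2 plasma, after having risen together between WT and ApoE plasma. Both comparisons share the ApoE arrays. The mean level of 19 proliferation genes moved along with Abcg1: it was 5.92 to 6.19 on WT arrays, 7.44 to 7.73 on ApoE arrays, 7.69 to 7.79 on AS1 arrays and 8.36 to 8.59 on AS2 arrays, and its part in the result was not tested.

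**Figure D1:**
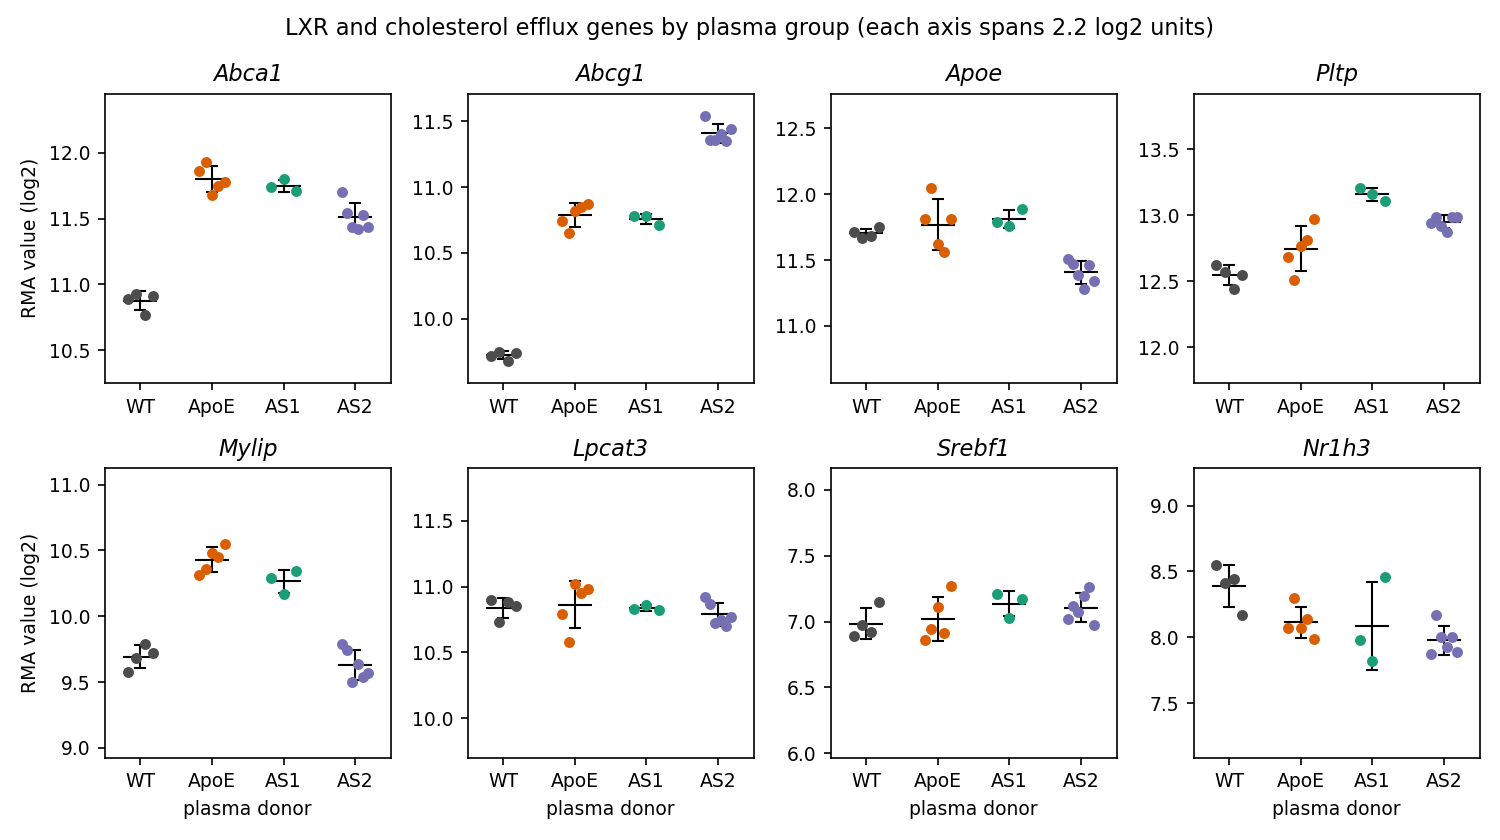
Deposited log2 values of the 8 measured genes on each array, by plasma group (WT n = 4, ApoE n = 5, AS1 n = 3, AS2 n = 6); bars give the mean ± SD, and each vertical axis spans 2.2 log2 units. The WT arrays lie below all others for Abca1 and Abcg1, the AS2 arrays lie highest for Abcg1, and for Mylip the AS2 arrays (9.5 to 9.79) overlap the WT arrays (9.58 to 9.79).

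Of the genes that act on lipoproteins, Apoe itself changed with AS2 plasma. It read 11.71, 11.67, 11.68 and 11.75 on WT arrays, 11.81, 12.05, 11.62, 11.56 and 11.81 on ApoE arrays, and 11.79, 11.76 and 11.89 on AS1 arrays, while AS2 arrays read 11.28 to 11.51 (median 11.42). Every AS2 array was below every array of the other 3 groups, and those groups overlapped each other except that all AS1 arrays were above all WT arrays. AS2 was 0.36 log2 units below ApoE (SE 0.07, adjusted p = 0.00114), 1.23-fold below WT (adjusted p = 0.00909) and 1.33-fold below AS1 (adjusted p = 0.00119). Between ApoE and WT plasma the difference was 0.07 (interval -0.10 to 0.23, adjusted p = 0.696), and between AS1 and WT 0.11 (adjusted p = 0.556).

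Pltp, the phospholipid transfer protein, which moves phospholipid between lipoproteins, was highest with AS1 plasma. It read 12.62, 12.57, 12.44 and 12.55 with WT plasma, 12.68, 12.51, 12.77, 12.81 and 12.97 with ApoE plasma, 13.21, 13.16 and 13.11 with AS1 plasma and 12.87 to 12.99 (median 12.97) with AS2 plasma. All AS1 arrays were above all others. AS1 exceeded ApoE by 0.41 log2 units (SE 0.074, 1.33-fold, adjusted p = 0.000655) and WT by 0.62 (1.53-fold, adjusted p = 3.43e-05), and AS2 exceeded WT by 0.41 (1.33-fold, adjusted p = 0.000173). 3 smaller differences passed the test narrowly: ApoE above WT by 0.20 (adjusted p = 0.0485), AS2 above ApoE by 0.20 (adjusted p = 0.0292) and AS2 below AS1 by 0.21 (1.16-fold lower, adjusted p = 0.0442). The first lost its call without any single array except WT replicate 1 or ApoE replicate 2 (up to adjusted p = 0.16), the second without ApoE replicate 1 or 2 or AS2 replicate 2, 5 or 6 (up to 0.0783), and the third without any 1 of the 9 arrays compared (0.0528 to 0.17). With AS1 plasma, 13 of 13 neutrophil marker genes rose against ApoE as well, to a mean level of 9.64 to 10.01 from 7.54 to 8.86. With AS2 plasma these markers mostly fell or did not pass the test. Against ApoE 0 rose and 6 fell (median -0.76), and against WT 1 rose and 5 fell (median -0.56). Over all rows, 16.5%, 15.6% and 17.8% were called in these comparisons, in turn. The part of these markers in the Pltp result was not tested.

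Mylip encodes an E3 ubiquitin ligase, also called IDOL, that sends lipoprotein receptors to degradation. Its level rose with ApoE plasma and was lower again with AS2 plasma, with no difference from WT that passed the test. The values were 9.58, 9.68, 9.79 and 9.72 with WT plasma, 10.31, 10.36, 10.48, 10.45 and 10.55 with ApoE plasma, 10.29, 10.17 and 10.34 with AS1 plasma, and 9.5 to 9.79 (median 9.61) with AS2 plasma. The ApoE and AS1 arrays together lay above all WT and AS2 arrays, which overlapped. ApoE exceeded WT by 0.74 log2 units (SE 0.067, adjusted p = 3.66e-07), AS1 exceeded WT by 0.58 (1.49-fold, adjusted p = 6.03e-05), and AS2 was 0.80 below ApoE (SE 0.061, 1.74-fold lower, adjusted p = 4.32e-08). AS2 and WT differed by -0.06, with an interval of -0.19 to 0.08 (adjusted p = 0.675), and AS1 and ApoE by -0.17 (interval -0.32 to -0.01, adjusted p = 0.15). The mean level of 6 megakaryocyte and platelet marker genes was 6.3 to 6.48 on WT arrays, 6.64 to 7.44 on ApoE arrays, 7.53 to 7.68 on AS1 arrays and 5.76 to 6.08 on AS2 arrays. Of these markers 5 rose and 1 fell with ApoE against WT plasma (median 0.77), and 0 rose and 6 fell with AS2 against ApoE (median -1.42). Over all rows, 16.9% and 15.6% were called in these comparisons. The part of these markers in the Mylip result was not tested. Of the receptors that MYLIP targets, Lrp8 and Vldlr were read here. Lrp8 fell by 0.53 log2 units with AS2 against ApoE plasma (adjusted p = 0.000243) and Vldlr passed no test in the 3 comparisons of ApoE with WT, AS1 with ApoE and AS2 with ApoE. Every group mean of Vldlr lay below the median row, so this says little about it.

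**Figure D2:**
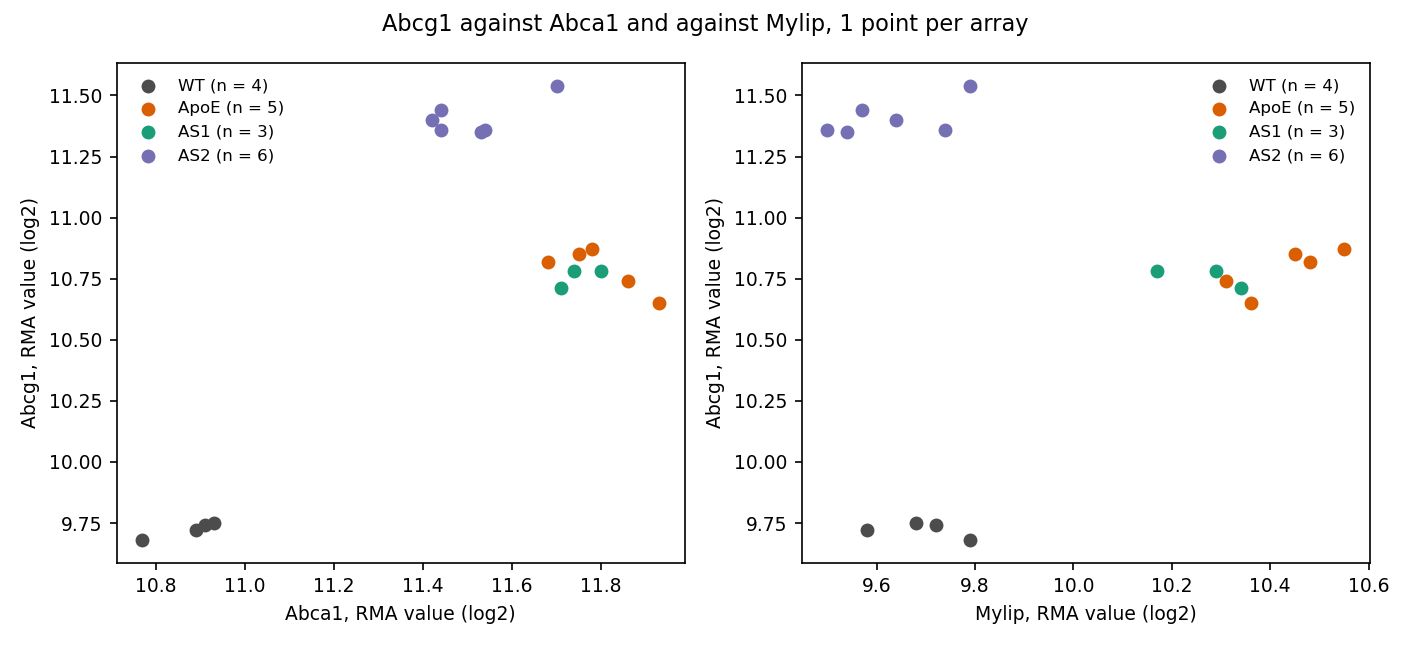
Abcg1 against Abca1 (left) and against Mylip (right), in log2 values with 1 point per array and colours for the 4 plasma groups. The AS2 arrays hold the highest Abcg1 values (11.35 to 11.54) at Abca1 values between those of WT and the mean of ApoE, and at Mylip values within 9.5 to 9.79.

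Lpcat3 and Srebf1 passed no test in any of the 6 comparisons. Lpcat3, which builds polyunsaturated fatty acids into phospholipids, read 10.90, 10.73, 10.88 and 10.85 with WT plasma, 10.79, 10.58, 11.02, 10.95 and 10.98 with ApoE plasma, 10.83, 10.86 and 10.82 with AS1 plasma and 10.70 to 10.92 (median 10.76) with AS2 plasma. Its 4 group means spanned 0.08 log2 units, and ApoE differed from WT by 0.02 (interval -0.14 to 0.18). Srebf1, the gene of the lipogenic transcription factor SREBP-1, read 6.89, 6.97, 6.92 and 7.15 with WT plasma, 6.86, 6.94, 7.11, 6.91 and 7.27 with ApoE plasma, 7.21, 7.03 and 7.17 with AS1 plasma and 6.97 to 7.26 (median 7.09) with AS2 plasma. Its means spanned 0.16, and ApoE differed from WT by 0.04 (interval -0.14 to 0.21). For both genes the upper limits lay below the lower limits of the same comparison for Abca1 (0.80) and Abcg1 (0.96).

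Nr1h3, the gene of LXR alpha, was the only member with its highest mean in the WT group. The WT arrays read 8.55, 8.41, 8.44 and 8.17, the ApoE arrays 8.07, 8.30, 8.07, 8.14 and 7.99, the AS1 arrays 7.98, 7.82 and 8.46, and the AS2 arrays 7.87 to 8.17 (median 7.96). WT replicate 4 lay below 1 ApoE and 1 AS1 array, and AS1 replicate 3 lay above 3 of the 4 WT arrays. AS2 was 0.42 log2 units below WT (1.33-fold lower, adjusted p = 0.00802). ApoE was 0.28 below WT (interval -0.51 to -0.05, adjusted p = 0.0977) and AS1 0.31 below (adjusted p = 0.148), neither past the threshold. Leaving out WT replicate 4 brought the ApoE difference past it (-0.35, adjusted p = 0.0435), and leaving out AS1 replicate 3 did so for AS1 (-0.50, adjusted p = 0.00673).

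Counted together, 4 of the 8 genes rose and 0 fell with ApoE against WT plasma, where 16.9% of all rows were called (8.54% higher, 8.36% lower). With AS1 against ApoE plasma 1 rose and 0 fell, beside 16.5% of rows called (7.74% higher, 8.8% lower). With AS2 against ApoE plasma 2 rose and 3 fell, beside 15.6% (7.59% higher, 8.02% lower). Against WT, 4 genes rose with AS1 plasma (9.48% of rows called, 4.84% higher and 4.64% lower) and 3 rose and 2 fell with AS2 plasma (17.8%, 8.65% higher and 9.2% lower). Between AS2 and AS1, 1 rose and 4 fell (22.1%, 11.5% higher and 10.6% lower), and without AS1 replicate 2 only 3 of these 5 were called, with Abca1 (adjusted p = 0.0505) and Pltp (0.104) lost. The arrays of the groups compared did not overlap for 3 genes in ApoE against WT (14.3% of all rows), 1 in AS1 against ApoE (18.2%), 3 in AS2 against ApoE (10.9%), 5 in AS1 against WT (18.1%), 4 in AS2 against WT (17%) and 5 in AS2 against AS1 (23.9%). An F test over the 4 groups called 6 of the 8, all but Lpcat3 and Srebf1, and 30.2% of all rows. In it Nr1h3 (adjusted p = 0.0302) lost its call without WT replicate 1, 2 or 3 or AS2 replicate 1, 4 or 6 (0.0534 to 0.118) and with the replicate block (0.112). The 8 genes are well expressed, and calls are more frequent at high levels: among the 5495 rows with a mean of at least 7.06, the lowest mean of the 8, the share called was 45.2% for ApoE against WT, 45.4% for AS1 against ApoE, 40.4% for AS2 against ApoE, 20.7% for AS1 against WT, 44.5% for AS2 against WT and 51.8% for AS2 against AS1. Against these shares stand 4, 1, 5, 4, 5 and 5 of the 8 genes in the same order, and with 8 genes nothing is read from the differences. The median difference over the 8 genes was 0.14 for ApoE against WT, -0.03 for AS1 against ApoE and -0.11 for AS2 against ApoE, against -0.004, 0.002 and -0.002 over all rows.

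**Figure D3:**
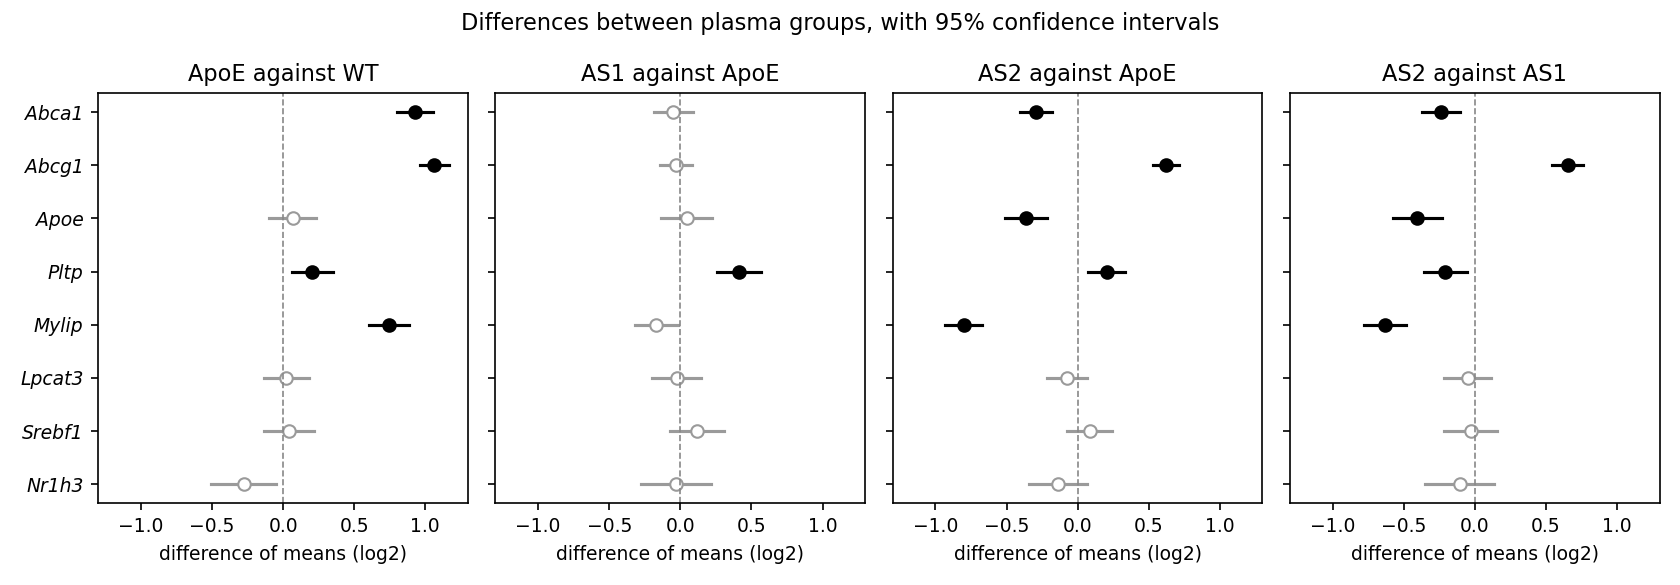
Difference of group means in log2 units for the 8 genes in 4 comparisons, with 95% confidence intervals from limma; filled black points had an adjusted p under 0.05 and open grey points did not. Between AS1 and ApoE plasma only Pltp passed the threshold, the interval of Mylip (-0.32 to -0.01) lying just below zero, while between AS2 and ApoE plasma Abcg1 (0.62) and Mylip (-0.80) move in opposite directions.

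Other genes of the pathway were read from lists, again with the ApoE arrays shared by all 3 comparisons. Over all rows, 16.9% were called for ApoE against WT, 16.5% for AS1 against ApoE and 15.6% for AS2 against ApoE. Among rows with a mean of at least 7.06 the shares were 45.2%, 45.4% and 40.4%, though some genes of the lists lie lower. The counts of these lists were not tested against such shares. Of 11 partners and coregulators of LXR that were measured, 4 fell and 0 rose with ApoE against WT plasma, with a median of -0.16. The coactivator gene Ncoa1 fell by 0.53 (adjusted p = 3.07e-05) and Rxrb, a retinoid X receptor, by 0.59 (adjusted p = 0.000115). With AS1 against ApoE plasma 5 rose and 0 fell, among them Ncoa1 by 0.48 (adjusted p = 0.000271), but without AS1 replicate 1 the count was 3, and 2 with only these 2 groups in the fit. With AS2 against ApoE plasma 2 rose and 2 fell. Rxra, the main retinoid X receptor of macrophages, had means of 8.52 with WT, 8.32 with ApoE, 8.73 with AS1 and 7.38 with AS2 plasma. With AS2 plasma it fell by 0.95 against ApoE (SE 0.098, 1.93-fold lower, adjusted p = 1.61e-06), and no AS2 array reached an ApoE array. Of 8 macrophage marker genes, 1 rose and 6 fell with ApoE against WT plasma (median -0.44). With AS1 against ApoE plasma 7 of them rose and 0 fell (median 0.41). With AS2 against ApoE 3 rose and 2 fell (median 0.04). The part of these markers in the results for LXR partners was not tested.

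Further LXR target genes moved in both directions. Of 23 measured, 7 rose and 3 fell with ApoE against WT plasma (median 0.09), 4 rose and 4 fell with AS1 against ApoE (median 0.02), and 6 rose and 5 fell with AS2 against ApoE (median -0.03). Fitting only the AS1 and ApoE arrays left 4 of those 8 calls in number. Mlxipl, Apoc2, Apoc4, Abcg4, Abcg5 and Abcg8 lay below the median row in every group mean, so the counts say little about them. Over all rows, the share called was 16.9% for ApoE against WT, 16.5% for AS1 against ApoE and 15.6% for AS2 against ApoE. Cd5l, a secreted inhibitor of macrophage death, rose by 0.66 with ApoE plasma (adjusted p = 0.000128) and fell by 0.54 from ApoE to AS2 (adjusted p = 0.000358). Mertk, a receptor for the uptake of dying cells, changed by 0.06 with ApoE plasma (adjusted p = 0.51) and fell by 0.70 from ApoE to AS2 (adjusted p = 6.51e-09). Tgm2, a transglutaminase, rose 2.18-fold with ApoE plasma (adjusted p = 7.84e-07) and was 2.03-fold lower with AS2 than with ApoE plasma (adjusted p = 6.63e-07). Its fall of 0.42 from ApoE to AS1 (adjusted p = 0.0192) lost the call without AS1 replicate 2 (adjusted p = 0.122).

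Among the targets that handle fatty acids, values differed from gene to gene. Scd2, a stearoyl-CoA desaturase, rose by 0.95 with ApoE plasma (adjusted p = 0.000389) and by a further 1.55 from ApoE to AS2 (adjusted p = 6.08e-07). Fasn, fatty acid synthase, rose by 0.39 with ApoE plasma (adjusted p = 0.00622), with -0.04 between AS2 and ApoE (adjusted p = 0.876). Lpl, the lipase that frees fatty acids from lipoproteins, fell by 0.79 with ApoE plasma (adjusted p = 3.67e-10), opposite to Abca1, and rose by 1.28 from ApoE to AS2 (2.42-fold, adjusted p = 2.76e-13). The mean level of 7 osteoclast marker genes was also higher on AS2 arrays (5.98 to 6.34) than on the other arrays (5.29 to 5.48). Against ApoE plasma 3 of them rose with AS2, Acp5 by 2.33, Dcstamp by 2.43 and Ctsk by 1.18. None fell and 4 did not pass the test, beside 15.6% of all rows called. The part of these markers in the results above was not tested.

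Genes that carry and store cholesterol inside the cell moved in both directions. Of 18 measured, 6 rose and 4 fell with ApoE against WT plasma (median -0.06), 5 rose and 7 fell with AS1 against ApoE (median -0.14), and 6 rose and 6 fell with AS2 against ApoE (median 0). Gramd1c and Lcat lay below the median row in every group mean. Over all rows, 16.9%, 16.5% and 15.6% were called in these comparisons, in turn. Gramd1b, which carries cholesterol from the plasma membrane to the endoplasmic reticulum, rose 3.04-fold with ApoE plasma (SE 0.063 on the log2 scale, adjusted p = 4.34e-11), from a mean of 7.55 to 9.15, and stood at 8.88 with AS1 and 8.56 with AS2 plasma. Npc1, which exports cholesterol from lysosomes, rose by 0.79 with ApoE plasma (adjusted p = 1.13e-08), then was lower than in ApoE by 0.66 with AS1 (adjusted p = 1.21e-06) and by 0.56 with AS2 plasma (adjusted p = 1.58e-07). Scarb1, the HDL receptor SR-BI, fell by 1.03 with ApoE plasma (adjusted p = 3.48e-06) and was higher than in ApoE by 0.61 with AS1 and 0.60 with AS2 plasma (adjusted p = 0.00174 and 0.000315). Among the 9 measured enzymes that make or break down LXR ligands, 0 rose and 1 fell with ApoE plasma, namely Cyp27a1, a sterol hydroxylase, by 0.42 (adjusted p = 0.000528). With AS1 plasma Cyp27a1 was 0.53 above ApoE (adjusted p = 0.000155). Of the 9 enzymes, Ch25h, Cyp7b1, Cyp11a1 and Sult2b1 lay below the median row in every group mean, so the count says little about them.

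The sterol synthesis branch, run by SREBP-2 and known to fall when cells hold much cholesterol, was read in 21 genes. With ApoE against WT plasma 0 rose and 6 fell (median -0.20), a count that was 3 without WT replicate 1 and 3 with only the compared groups in the fit. Among those 6 was Fdps, whose means of 3.99 with ApoE and 4.25 with WT plasma lay below the median row of 4.37. Idi1, which did not pass the test, also lay below it in every group mean. Srebf2 itself fell by 0.48 (adjusted p = 0.000567) and Nsdhl, an enzyme of the pathway, by 0.54 (adjusted p = 0.000161), while Hmgcs1, the synthase at its start, changed by 0.22 (adjusted p = 0.123). With AS1 against ApoE plasma 1 rose and 5 fell (median -0.18; 3 calls without AS1 replicate 3), among them Hmgcs1 by 0.71 (adjusted p = 7.61e-05). With AS2 against ApoE plasma 1 rose and 1 fell (4 calls without ApoE replicate 3). Beside these counts, 16.9%, 16.5% and 15.6% of all rows were called in the 3 comparisons, in turn.

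Among family relatives of the 10 genes, 19 were measured. Of these, 2 rose and 7 fell with ApoE against WT plasma (median -0.01), 8 rose and 1 fell with AS1 against ApoE (median 0.24), and 5 rose and 2 fell with AS2 against ApoE (median -0.01), beside 16.9%, 16.5% and 15.6% of all rows called. Nr1h4, Nr1h5, Bpi, Abcg4, Apoc2 and Apoc4 lay below the median row in every group mean, so the counts say little about them. The transporter gene Abca9 fell 2.70-fold with ApoE plasma (adjusted p = 3.09e-08), where Abca1 rose. Lpcat2, an acyltransferase like Lpcat3, fell by 0.66 with ApoE plasma (adjusted p = 1.33e-05), was 0.70 higher with AS1 than with ApoE plasma (adjusted p = 3.05e-05) and 0.52 lower with AS2 (adjusted p = 5.87e-05). Lbp, which shares the lipid-binding fold of Pltp, rose by 0.74 with ApoE plasma (adjusted p = 8.75e-05) and was 1.83-fold lower with AS2 than with ApoE plasma (adjusted p = 4.57e-06), where Pltp was higher. Of the 8 macrophage markers, 1 rose and 6 fell with ApoE against WT plasma, and 7 rose and 0 fell with AS1 against ApoE. The part of these markers in the results for the relatives was not tested.

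**Figure D4:**
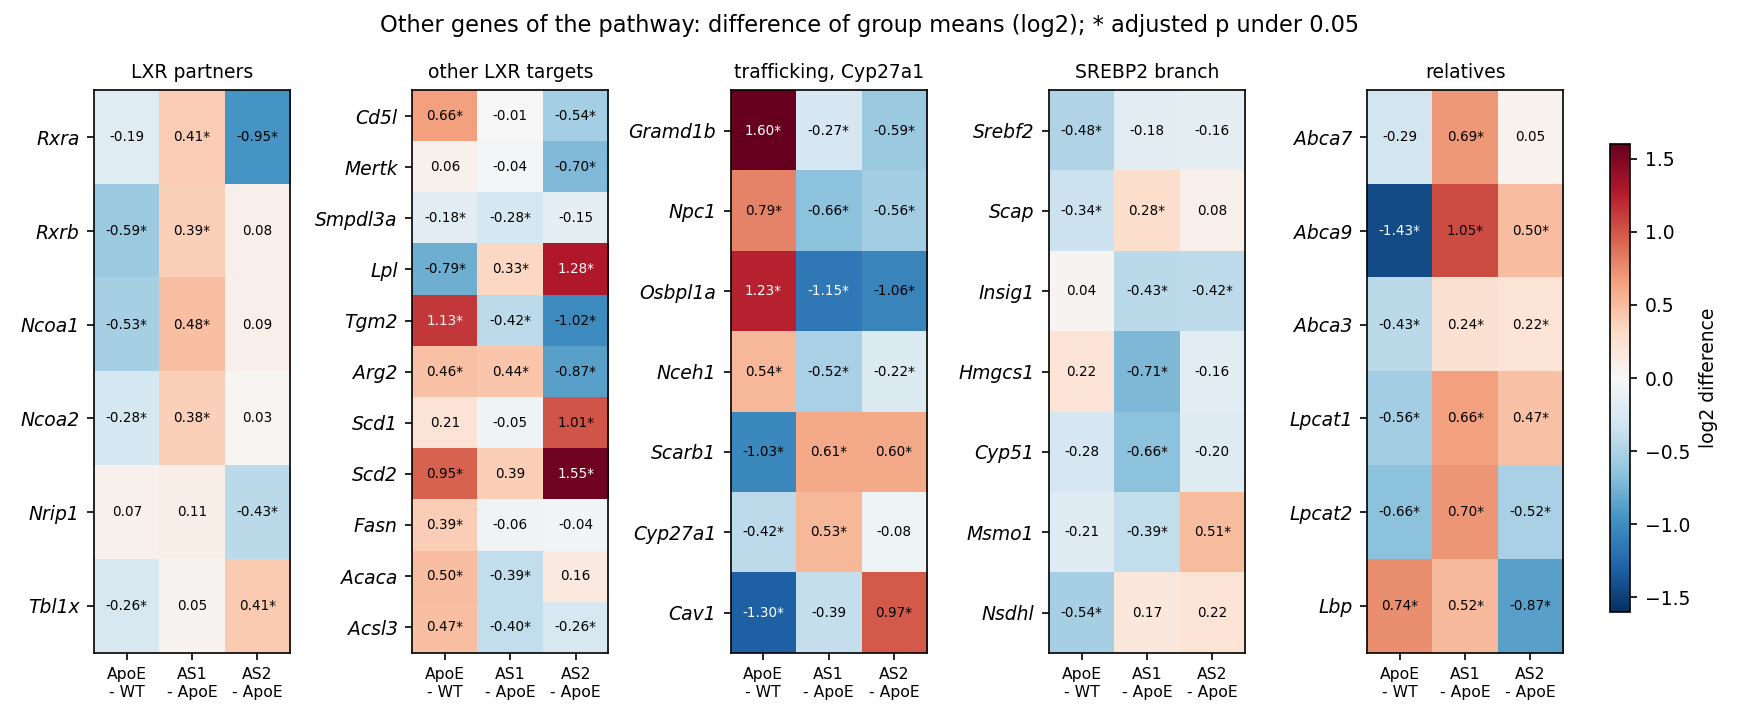
Difference of group means in log2 units (numbers and colour) for other genes of the pathway in the comparisons ApoE minus WT, AS1 minus ApoE and AS2 minus ApoE; an asterisk marks an adjusted p under 0.05 in limma. Gramd1b, Npc1 and Osbpl1a change sign between the first column and the others, and Lpl (-0.79, 0.33, 1.28) runs opposite to Tgm2 (1.13, -0.42, -1.02).

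For each gene, the 3 genes with the most similar pattern over the 18 arrays were taken from all rows, by Pearson's r. Because the arrays form 4 groups, r mostly reflects the group means, and it is given as a description. Closest to Abca1 were Gramd1b (r = 0.968, rho = 0.893), Nr1d2 (r = 0.922) and Ckap4 (r = 0.909). The closest to Abcg1 were Tubb5 (r = 0.985, rho = 0.905), Kif20a (r = 0.979) and Kif2c (r = 0.979), and Kif20a had means of 5.49 with WT, 6.96 with ApoE, 7.28 with AS1 and 8.07 with AS2 plasma. Apoe was closest to Arfgef1 (r = 0.937), Hif1a (r = 0.93) and Top1 (r = 0.928), Mylip to Mpzl1 (r = 0.965), F5 (r = 0.956) and Got1 (r = 0.947), and Pltp to Jaml (r = 0.917), H2ac21 (r = 0.909) and Tmem26 (r = 0.908). For Nr1h3, Lpcat3 and Srebf1 the highest r was 0.817 (B230219D22Rik), 0.855 (Gm9774) and 0.804 (Gnmt). None of the 8 genes was among the 3 closest to another.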

How the data were processed

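RNA of 18 macrophage samples was hybridised to Affymetrix arrays as biotin-labelled cRNA, per the labels' protocols. The authors deposited log2 values from RMA (background correction, quantile normalization and summary of probes), per the submitters' processing notes, with RMA version and genome build not given in the sources used here. Quantile normalization sets the distributions of arrays equal and hides any change in the total RNA of a cell. Of 25428 rows, 24705 had 1 gene symbol in the platform annotation, which can be old, and the 723 rows outside it have no name here. The number of arrays per group limits the precision, since arrays carry no read depth. From the deposited log2 values, limma 3.58.1 (R 4.3.3; lmFit, eBayes) fitted 1 model with 4 group means to the 24705 rows, with 14 residual degrees of freedom, two-sided tests, Benjamini-Hochberg adjustment over all rows and a threshold of 0.05. In all, 6 pairwise comparisons and an F test were made. "Rose", "fell" and "called" refer to this threshold. The code was tested on simulated data.

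The genes, lists and tests were chosen with earlier results of these data known. The text names all members, the 3 genes most like each, up to 3 genes per list and comparison by smallest adjusted p, and a set of fixed genes, of which it prints part. Alternatives changed the rows tested, the normalization, the variance model, the arrays in the fit and the replicate block. Across 22 pairs of arrays with the same replicate number in different groups, deviations from the group means correlated at -0.21 to 0.13, over 0.1 in 4 pairs, so the numbers were not taken to pair the arrays.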

Additional observations from a re-analysis of the deposited data

How the results depend on the processing

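Of 24 pairwise differences of the 8 genes that passed the threshold, 20 passed it under every alternative run and 0 changed sign. The exceptions were Abca1 between AS2 and AS1 and the 3 small differences of Pltp. Leaving out each array in turn gave 3 to 4 members called between AS2 and AS1, 5 as reported. With the replicate block, which here carries only a shared number, Pltp lost its call for ApoE against WT (0.17, adjusted p = 0.132) and for AS2 against ApoE (0.196, adjusted p = 0.0605), no other pairwise call of a member changed, the F test called 5 members (6 as reported, Nr1h3 lost at adjusted p = 0.112), and 3945, 3748 and 3475 rows were called for, in turn, ApoE with WT, AS1 with ApoE and AS2 with ApoE. With only the compared groups in the fit, these Pltp differences had adjusted p = 0.181 and 0.0696. Of 24 member differences not past the threshold, 9 changed sign under some alternative; the cause was not tested. For ApoE against WT these were Apoe (-0.006 with array weights, -0.04 without ApoE replicates 2 and 5, -0.004 to 0.12 leaving out single arrays), Srebf1 (-0.009 with the replicate block, -0.018 without ApoE replicates 2 and 5, -0.024 to 0.095) and Lpcat3 (-0.019 to 0.092). For AS1 against ApoE they were Apoe (-0.007 to 0.116), Nr1h3 (-0.217 to 0.102) and Lpcat3 (-0.095 to 0.016), for AS1 against WT Lpcat3 (0.003 with the replicate block, -0.039 to 0.016), and for AS2 against AS1 Nr1h3 (-0.239 to 0.079) and Srebf1 (-0.086 to 0.009). Of the 106 called differences of the named list genes, 16 lost the call under some alternative and 0 changed sign; uncalled ones that changed sign were Insig1 for ApoE against WT (-0.019 to 0.085), Tbl1x (-0.064 to 0.117), Cd5l (-0.123 to 0.057), Scd1 (-0.13 to 0.054) and Mertk (0.02 without ApoE replicates 2 and 5) for AS1 against ApoE, and Fasn (-0.083 to 0.011) and Abca7 (-0.004 to 0.109) for AS2 against ApoE. Of 2280 counts of called genes per list and setting, 150 were over 1.5 times away from the reported count. No group of 4 to 6 arrays had an array far from the rest in any of the 8 genes by Dixon's test (24 groups tested).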
